A study of Mus musculus with 2 samples.

Results

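Ubiquitin-conjugating enzymes, called E2 enzymes, carry ubiquitin or a ubiquitin-like protein on a cysteine between an activating E1 enzyme and an E3 ligase that picks the target. The genes described here are those whose name begins with Ube2 followed by a letter, in long-read RNA libraries of mouse cerebral cortex. They were taken by this name rule, which was set with earlier results of these data known. Of such genes 36 had at least 1 read, of 18510 annotated genes detected in all. Of the 36, 34 are annotated as protein-coding and 2 as pseudogenes (Ube2d-ps and Ube2n-ps1). Ube2cbp fits the name but is named for binding Ube2c and is not itself counted as an E2 enzyme. Another 7 annotated genes of that name pattern had no read in either library, namely Ube2u, Ube2dnl1, Ube2dnl2, Ube2d4, Ube2l3-ps1, Ube2nl and Ube2uos.

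In the cascade, the E1 spends ATP to load the modifier onto the E2 cysteine, and the E2 often decides which kind of chain is built. Most E2 enzymes use ubiquitin, a few are dedicated to SUMO, NEDD8 or ISG15, and the Ube2v proteins have the E2 fold without the cysteine and work as partners of Ube2n. In neurons the pathway serves protein turnover at the synapse and quality control in the endoplasmic reticulum (ER).

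Left cerebral cortex was taken from females of the hybrid strain B6CASTF1/J (C57BL/6J crossed with CAST/EiJ) at 14 days of age, with no treatment named, and 2 µg of total RNA went into a library. The 2 libraries are replicates 1 and 2 of 1 group, so there is no second condition to compare. The tissue entry of replicate 1 names 3x Females 03 and that of replicate 2 names Female 04, under 1 shared donor entry, and the labels do not say whether tissue was pooled. Both alleles of the cross are counted together.

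Replicate 1 held 1072344 mouse reads and replicate 2 held 753520, so that 1 read equals 0.933 and 1.33 reads per 1000000 mouse reads (RPM). Each long read was taken as 1 RNA molecule and RPM is therefore not divided by transcript length. Whether the share of molecules that were read depends on that length was not tested, so the order of genes is one of read counts. All 6 markers of cortical neurons had reads, with summed levels of 1750 RPM in replicate 1 and 1508 RPM in replicate 2, and of 3 cerebellar markers Gabra6 had 1 read in replicate 1 and none in replicate 2, while Pcp2 and Cbln3 had none in either. All 5 myelin markers were also detected and summed to 5630 RPM in replicate 1 and 3371 RPM in replicate 2. Of 4 choroid plexus markers 3 were detected, with 27.0 RPM in replicate 1 and 264 RPM in replicate 2, nearly all from Ttr, while Kl had no read. In bulk tissue, fewer cells of a type and less RNA per cell cannot be told apart.

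The shared feature of the enzymes is a short stretch around the cysteine that holds the modifier. In coding DNA it was searched as the codons for histidine (CAT or CAC), proline (CCN) and asparagine (AAT or AAC), followed after 7 or 8 further codons by a cysteine codon (TGT or TGC), on the coding strand in the reading frame of each member's leading annotated transcript (33 members had one with reads and a coding sequence). It was found in 20 of the 33 members, with 7 codons between in 18 of them and 8 in Ube2h and Ube2k. A second search used the longest coding sequence of every protein-coding gene, with or without reads. There the motif was found in 22 of 37 genes of the Ube2 name pattern. Among the other protein-coding genes it was found in 69 of 21555, or 0.320%. The 20 members held 50.9% of the family's reads. The stretch is shown for 5 members, 4 of them among the most abundant with the motif and Ube2k for its longer spacing, with the 3 motif codons and the cysteine codon in capitals. All are read 5′ to 3′ on the coding strand from GENCODE M21 transcripts on mm10.
Ube2m (chr7:13036226-13036258, minus strand): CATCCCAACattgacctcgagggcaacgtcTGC
Ube2d3 (chr3:135459999-135460031, plus strand): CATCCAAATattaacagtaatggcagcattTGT
Ube2n (chr10:95541403-95541435, plus strand): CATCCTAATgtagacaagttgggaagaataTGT
Ube2h (chr6:30241409-30242557, minus strand, across an intron): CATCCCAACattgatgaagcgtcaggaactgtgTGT
Ube2k (chr5:65581410-65581445, plus strand): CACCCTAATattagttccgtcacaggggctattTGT

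A looser search, added after the first had been run, allowed asparagine for the histidine, cysteine for the proline and histidine for the asparagine, with 7 codons between. It added 5 members, Ube2w, Ube2e3, Ube2e1, Ube2z and Ube2o. Over the longest coding sequences, the strict and looser motif together were found in 28 of the 37 genes and in 0.872% of the other protein-coding genes. In the leading transcripts neither motif was found in 8 members, which were Ube2v1, Ube2v2, Ube2q1, Ube2q2, Ube2ql1, Ube2j1, Ube2j2 and Ube2cbp. No match says only that these letters were not present.

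The family as a whole took 4449 reads in replicate 1 and 3108 in replicate 2. These are 0.415% (95% Wilson interval 0.403 to 0.427) and 0.412% (0.398 to 0.427) of the mouse reads, so the family's share differed by less than its counting error. The median member stood at 81.5 RPM, against 10.8 RPM for the median of all detected genes, which include genes with a single read. Among genes with 10 or more reads the medians were closer, at 83.5 RPM for members and 30.9 RPM for all genes. Of the members, 15 averaged above 100 RPM, 16 lay between 10 and 100 RPM and 5 below 10 RPM. Reads were uneven within the family, with 40.4% of them on the 5 most abundant members and 69.9% on the top 12.

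**Figure D1:**
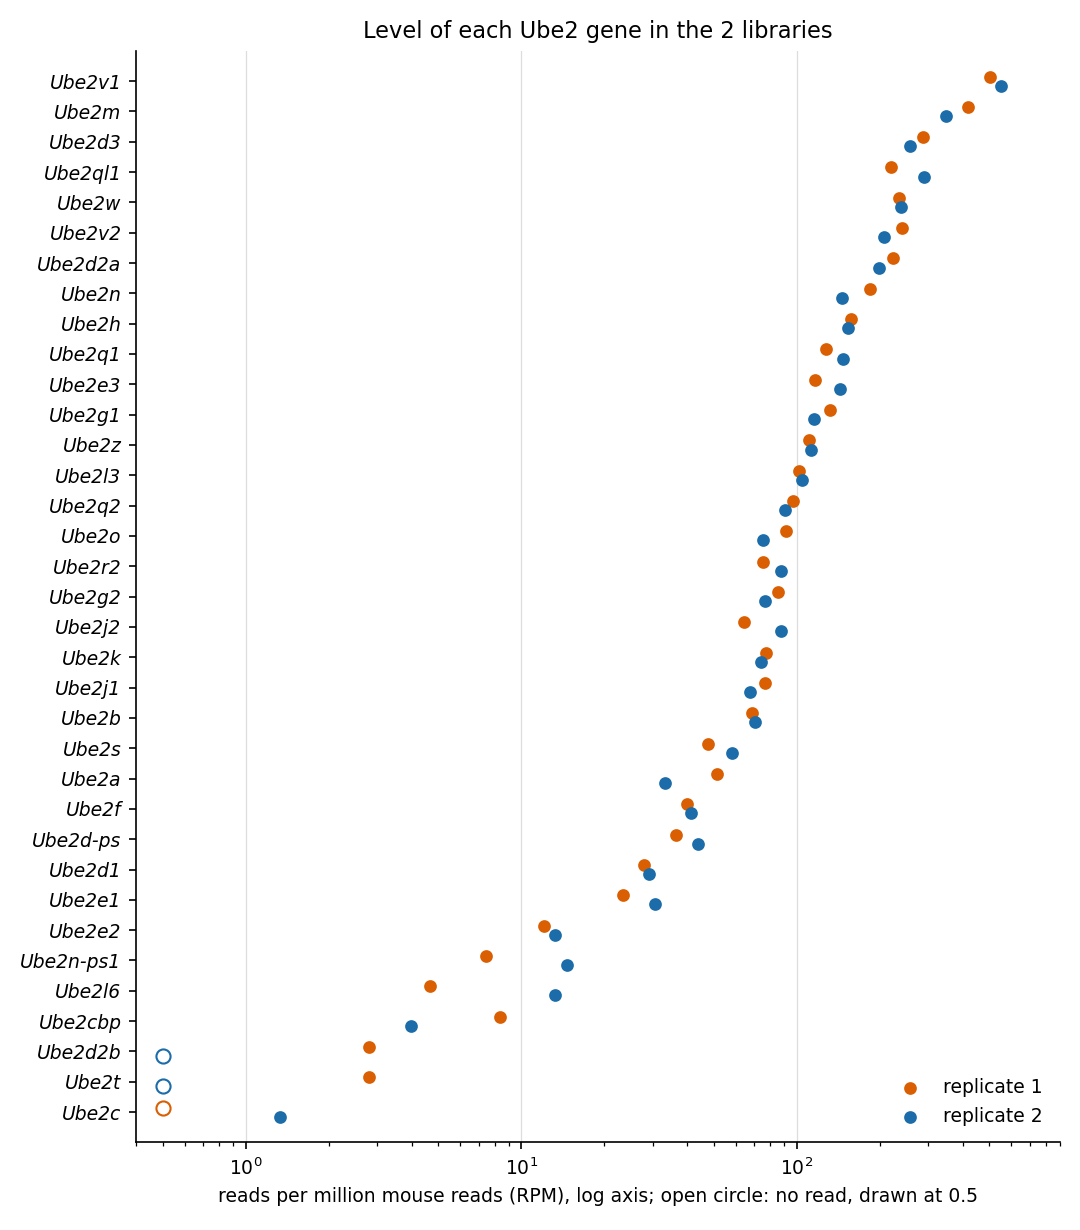
Level of 35 of the Ube2 genes in RPM on a log axis, ordered by the mean of the libraries, with replicate 1 above replicate 2 in each row and an open circle at 0.5 where a library had no read. Ube2v1 leads at 504 and 549 RPM, and the 3 genes at the bottom have reads in 1 library only.

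The most abundant member was Ube2v1, an E2 variant without the cysteine that pairs with Ube2n to build signalling-type ubiquitin chains. It had 540 reads in replicate 1 and 414 in replicate 2, or 504 and 549 RPM. Its relative Ube2v2, the partner of Ube2n in DNA-damage tolerance, had 258 and 156 reads (241 and 207 RPM). Ube2n, the catalytic member of both pairs, had 197 and 110 reads (184 and 146 RPM). Both variants were thus above their partner in both libraries, and the 3 genes together reached 928 RPM in replicate 1 and 902 RPM in replicate 2. The coding sequences of Ube2v1 and Ube2v2 are identical at 77.7% of 435 aligned bases. Ube2n-ps1, a single-exon pseudogene copy within Clock, matches the whole Ube2n coding sequence of 456 bases at 100%, and its 8 and 11 reads (7.46 and 14.6 RPM) are therefore uncertain.

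Ube2m, the main E2 for NEDD8, was second with 448 reads in replicate 1 and 263 in replicate 2 (418 and 349 RPM). The other NEDD8 enzyme, Ube2f, had 43 and 31 reads (40.1 and 41.1 RPM) and lay well below Ube2m in both libraries. Ube2l6, the interferon-induced E2 for ISG15, had only 5 and 10 reads (4.66 and 13.3 RPM). Isg15 itself had no read in either library, which allows up to 2.80 RPM in replicate 1 and 3.98 RPM in replicate 2.

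The broadly acting Ube2d group was led by Ube2d3, with 307 reads in replicate 1 and 194 in replicate 2 (286 and 257 RPM). Ube2d2a followed with 239 and 150 reads (223 and 199 RPM), and Ube2d1 had 30 and 22 reads (28.0 and 29.2 RPM). The ranges of these 3 genes did not overlap. Their coding sequences are close, with 86.4% identity between Ube2d2a and Ube2d3 and 77.3% between Ube2d1 and Ube2d3, over 441 bases. The single-exon gene Ube2d2b is 92.7% identical to Ube2d2a and had 3 reads in replicate 1 and none in replicate 2, which allows up to 3.98 RPM there. At that similarity the placement of these reads is uncertain. The pseudogene Ube2d-ps had 39 and 33 reads (36.4 and 43.8 RPM), more than Ube2d1 in both libraries.

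Ube2ql1, a Q-type E2, came next after Ube2d3 with 235 reads in replicate 1 and 219 in replicate 2 (219 and 291 RPM). Its relatives had fewer reads, with 137 and 111 for Ube2q1 (128 and 147 RPM) and 104 and 68 for Ube2q2 (97.0 and 90.2 RPM). Ube2w, which modifies protein amino termini, had 252 and 180 reads (235 and 239 RPM). Ube2h, the E2 of the CTLH ligase complex, had 168 and 116 reads (157 and 154 RPM). Ube2l3, a partner of HECT and RING-between-RING ligases, had 109 and 79 reads (102 and 105 RPM), and Ube2o had 98 and 57 (91.4 and 75.6 RPM). Among the Ube2e genes, Ube2e3 had 125 and 108 reads (117 and 143 RPM), Ube2e1 had 25 and 23 (23.3 and 30.5 RPM) and Ube2e2 had 13 and 10 (12.1 and 13.3 RPM). No read of Ube2e2 matched an annotated transcript along its whole chain.

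The enzymes of ER quality control and degradation-type chains lay in the middle of the order. Ube2g1 had 142 and 87 reads (132 and 115 RPM), and Ube2g2, which serves ER-associated degradation, had 92 and 58 (85.8 and 77.0 RPM). The membrane-anchored ER enzymes Ube2j1 and Ube2j2 had 82 and 51 reads (76.5 and 67.7 RPM) and 69 and 66 reads (64.3 and 87.6 RPM). Ube2r2, which works with cullin ligases, had 81 and 66 reads (75.5 and 87.6 RPM). Ube2k, which elongates chains and carries its own ubiquitin-binding domain, had 83 and 56 reads (77.4 and 74.3 RPM). The ranges of Ube2g2, Ube2j2 and Ube2r2 overlapped each other, so their order was not resolved. Ube2b and Ube2a, the Rad6-type enzymes that ubiquitinate histone H2B and PCNA, had 74 and 53 reads (69.0 and 70.3 RPM) and 55 and 25 reads (51.3 and 33.2 RPM).

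Enzymes of dividing cells were at the bottom, apart from Ube2s. Ube2s, which extends chains for the anaphase-promoting complex, had 51 and 44 reads (47.6 and 58.4 RPM). Ube2c, which starts those chains, had no read in replicate 1 and 1 read in replicate 2. Ube2t, the E2 of the Fanconi anaemia pathway, had 3 reads in replicate 1 and none in replicate 2. Ube2cbp had 9 and 3 reads. A count of 0 allows up to 2.80 RPM in replicate 1 and 3.98 RPM in replicate 2. Ube2s overlaps Rpl28 on the opposite strand, and 26 and 28 reads at its locus were placed on unannotated antisense models; how strand was assigned is not given in the sources used here, so both counts are uncertain. Of 7 cell-cycle markers, Mki67 had no read and Pcna made up most of the summed 84.9 RPM in replicate 1 and 79.6 RPM in replicate 2.

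Of the top 12 members, 6 of the 11 neighbouring pairs in the order had overlapping ranges. Ube2v1 and Ube2m each stood clear of the next member in both libraries, whereas the members from Ube2d3 to Ube2d2a formed a chain of overlapping neighbours. With 2 libraries the SD of a level rests on a single difference.

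Between the libraries, no member differed beyond the correction for multiple tests. The exact binomial test (two-sided, given the library totals, Benjamini-Hochberg adjustment over all 11339 genes with 10 or more reads) called 0 of the 33 members tested, and 0.882% of all genes tested were called (100 of 11339). At an unadjusted p under 0.05 it held 2 members, against 8.60% of all genes tested. These were Ube2ql1, lower in replicate 1 (log2 of replicate 1 over replicate 2 −0.41, p = 0.00308, adjusted p = 0.157 in the exact test), and Ube2m, higher in replicate 1 (log2 0.26, p = 0.0222, adjusted p = 0.434, exact test). The test compares these 2 libraries and weighs counting error alone. Ube2ql1 depended on which models were counted. Without the class called Genomic its adjusted p was 0.0410 in the exact test, where 1.66% of all genes tested were called, and its adjusted p ranged from 0.0410 to 0.254 over the alternatives. Its 10 single-exon reads in replicate 1 carry the Genomic class, while the 3 such reads in replicate 2 are called incomplete splice matches.

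**Figure D2:**
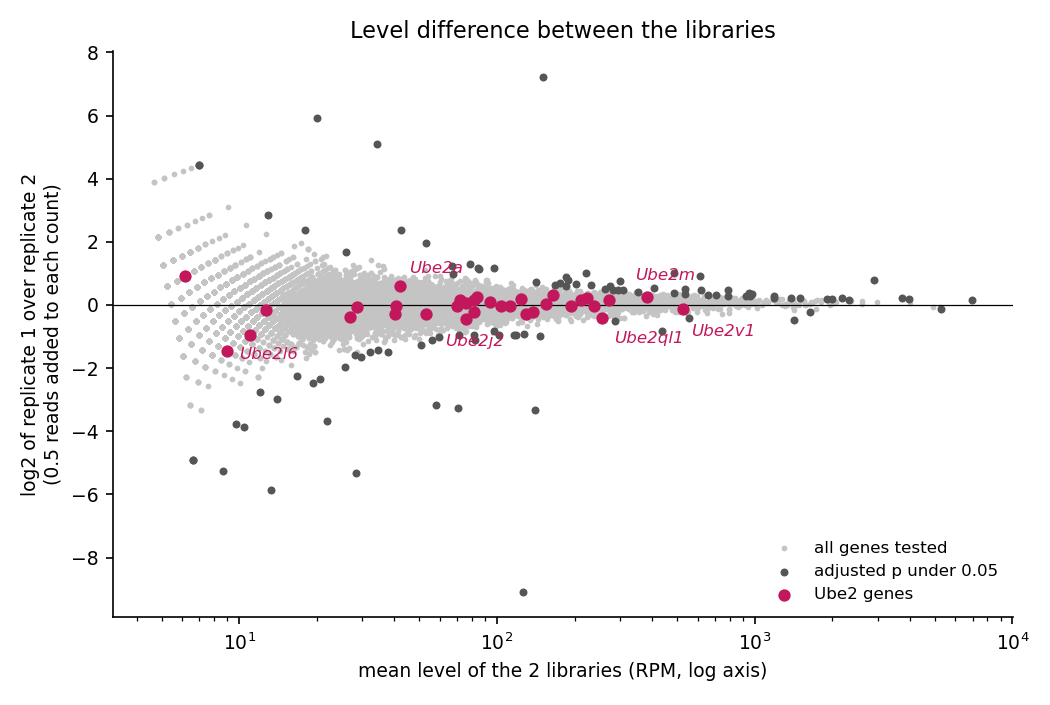
Log2 of replicate 1 over replicate 2 (0.5 reads added to each count) against the mean level in RPM on a log axis, for the 11339 genes tested, with the 100 genes past the adjusted threshold in dark grey and the 33 Ube2 genes tested in magenta. The Ube2 genes above 100 RPM lie between −0.41 and 0.33, and none is among the dark points.

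Among members with 50 or more reads the median absolute log2 ratio was 0.17, and the largest was 0.61, in Ube2a with 55 reads in replicate 1 and 25 in replicate 2 (adjusted p = 0.637, exact binomial test). For all genes with 50 to 1000 reads the median absolute log2 ratio was 0.19. Of the 33 members tested, 14 had the higher RPM in replicate 1 and 19 the lower, with a median log2 ratio of −0.03 against 0.00 for all genes tested. The difference in myelin and choroid plexus markers between the libraries is described above, and its part in the members' levels was not tested.

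Reads on members mostly followed annotated transcripts from end to end of the splice chain. The annotated share was 84.9% in replicate 1 and 84.5% in replicate 2, against 72.7% and 71.2% over all annotated genes. Incomplete splice matches, which lack introns at an end of the annotated chain, made up 3.93% and 4.18% of member reads, against 10.6% and 11.6% over all annotated genes. Genomic is a class TALON gives to models that overlap a gene without following its splicing. Such reads made up 5.10% and 5.57% of member reads, against 6.04% and 6.61% over all annotated genes. Among members with 50 or more reads, Ube2m, Ube2s and Ube2a had the highest annotated shares over both libraries, at 98.7%, 98.9% and 98.8%.

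**Figure D3:**
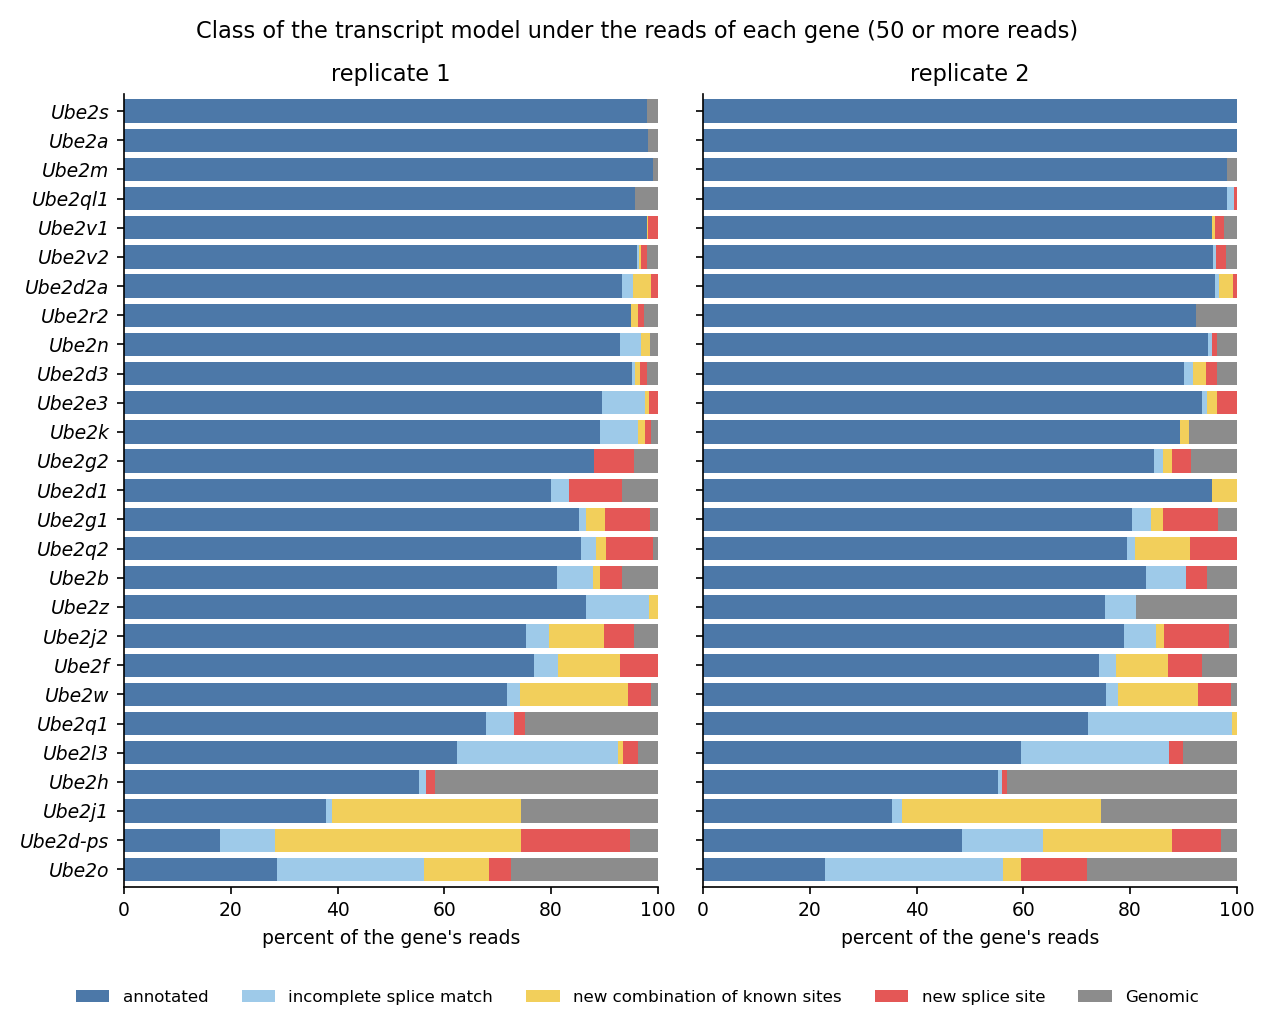
Share of each gene's reads in the classes of transcript model, for 27 Ube2 genes with 50 or more reads in total, replicate 1 in the left panel and replicate 2 in the right. Ube2o, Ube2d-ps and Ube2j1 at the bottom have annotated shares of 26.5%, 31.9% and 36.8% over both libraries, and the grey Genomic part of Ube2h is 41.7% and 43.1%.

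Ube2o, a large enzyme that combines E2 and E3 activity, had the lowest annotated share among members with 50 or more reads, 26.5% over both libraries. Of its reads, 28 in replicate 1 and 13 in replicate 2 covered an annotated chain, while 27 and 19 were incomplete matches and 27 and 16 were Genomic. Ube2j1 had an annotated share of 36.8%, with 29 and 19 reads on new combinations of known splice sites and 21 and 13 Genomic reads. Ube2d-ps had 31.9%, with 7 of 39 reads annotated in replicate 1 and 16 of 33 in replicate 2. In Ube2h, 70 of 168 reads from replicate 1 and 50 of 116 from replicate 2 were single-exon Genomic reads. Of these, 69 and 50 lay wholly within its last exon of 3795 bases, which holds the 3′ UTR. Without the Genomic class the mean level of Ube2h was 95.2 RPM, against 155 RPM with it. The same position was usual in the family, since 217 of 245 single-exon unannotated reads from replicate 1 and 169 of 198 from replicate 2 lay within the last exon of the gene's leading transcript.

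Members ranged from a nearly single splice chain to several chains in use. Among the 28 members with 20 or more full-chain reads in each library, the most abundant chain was an annotated one in all 28, and it held more than 90% of the full-chain reads in both libraries in 13, or 46.4% of them. Over all 4968 genes of that depth, the leading chain held more than 90% in both libraries in 32.3%. In 9 of the 28 members it held less than 80% in both. The median leading share was 90.6% in replicate 1 and 92.2% in replicate 2, against 84.9% and 84.4% over all such genes. Ube2ql1, Ube2m and Ube2n were nearly uniform, with a leading share of at least 98.4% in both libraries. The leading chain's share was compared between the libraries by Fisher's exact test (two-sided, Benjamini-Hochberg over 4865 genes). It called 0 of the 28 members, beside 0.247% of all genes tested (12 of 4865), and 2 members had an unadjusted p under 0.05, against 5.08% of all genes tested. In Ube2d-ps the leading chain took 6 of 33 reads from replicate 1 and 14 of 27 from replicate 2 (p = 0.0122, adjusted p = 0.776, Fisher's exact test).

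In 3 members a second chain held 20% or more of the full-chain reads in both libraries, and these were Ube2j1, Ube2o and Ube2j2. In Ube2j1 the second chain was nearly as frequent as the first, with 27 of 60 reads from replicate 1 and 18 of 37 from replicate 2. It leaves out 1 coding exon of 120 bases, codons 187 to 226 of 318, and is not itself an annotated chain although the junction that skips the exon is annotated. The exon was included in 33 of 61 spanning reads from replicate 1 (54.1%, 95% Wilson interval 41.7 to 66.0) and in 18 of 38 from replicate 2 (47.4%, 32.5 to 62.7). Skipping keeps the reading frame and leaves 278 codons, with the later part of the protein, where the ER membrane anchor lies at the carboxyl end, in frame. The exon is shown because it separates the 2 common forms.
Ube2j1 exon (chr4:33045080-33045199, plus strand): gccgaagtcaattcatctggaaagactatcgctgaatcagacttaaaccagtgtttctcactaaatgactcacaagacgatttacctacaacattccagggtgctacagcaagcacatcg

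In Ube2o a donor 75 bases upstream of the annotated one was used in 12 of 45 reads from replicate 1 (26.7%, 16.0 to 41.0) and 6 of 20 from replicate 2 (30.0%, 14.5 to 51.9). That donor is not in the annotation. Its use removes codons 356 to 380 in frame and leaves 1263 codons of 1288. In replicate 1 the chain with this donor carries the class for new combinations of known sites and in replicate 2 that for a new site. The bases removed are given because the donor is unannotated.
Ube2o (chr11:116545046-116545120, minus strand): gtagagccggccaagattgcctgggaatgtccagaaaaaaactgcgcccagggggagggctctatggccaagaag

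Ube2j2 varied at its 5′ end. An exon of 163 bases was included in 38 of 63 reads from replicate 1 (60.3%, 48.0 to 71.5) and 40 of 60 from replicate 2 (66.7%, 54.1 to 77.3). The coding sequence of the leading transcript, with 271 codons, starts within this exon, and the annotated transcript without the exon has 259 codons. Its leading and second chains held 24 and 14 of 63 full-chain reads in replicate 1 and 23 and 16 of 61 in replicate 2.

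Over the family, 154 internal annotated exons reached 20 spanning reads in both libraries. Of these, 131 were scored as included in more than 95% of reads. Overlapping annotated exons were scored separately. The 131 count an exon of 2374 bases in Ube2d1 (27 of 27 and 20 of 20 reads) and one of 264 bases in Ube2d2a. Shorter annotated exons at both ends of each were also scored at over 95%, so the middle of these long exons need not be in the reads. In 9 genes, 11 exons had a mean inclusion between 5% and 95%, and 3 of these were coding with a length divisible by 3. Besides Ube2j1 these were an exon of 105 bases in Ube2q2 and one of 126 bases in Ube2v2. The Ube2q2 exon, codons 99 to 133 of 378, was included in 75 of 101 reads from replicate 1 (74.3%, 65.0 to 81.8) and 52 of 68 from replicate 2 (76.5%, 65.1 to 85.0). The Ube2v2 exon, codons 56 to 97 of 145, was included in 233 of 253 reads (92.1%, 88.1 to 94.8) in replicate 1 and 149 of 153 (97.4%, 93.5 to 99.0) in replicate 2. Both skipping forms are annotated. The annotated Ube2q2 skipping junction took 26 of 101 reads at its acceptor in replicate 1 (25.7%) and 11 of 65 in replicate 2 (16.9%). The annotated chain without the exon held 24 of 100 and 6 of 67 full-chain reads. A neighbouring Ube2q2 exon of 102 bases was included in 101 of 101 and 63 of 68 reads. Reads without the 105-base exon in replicate 2 thus did not all follow the annotated form.
Ube2q2 exon (chr9:55168203-55168307, plus strand): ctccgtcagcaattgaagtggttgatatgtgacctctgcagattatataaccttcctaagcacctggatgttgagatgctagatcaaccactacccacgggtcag

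**Figure D4:**
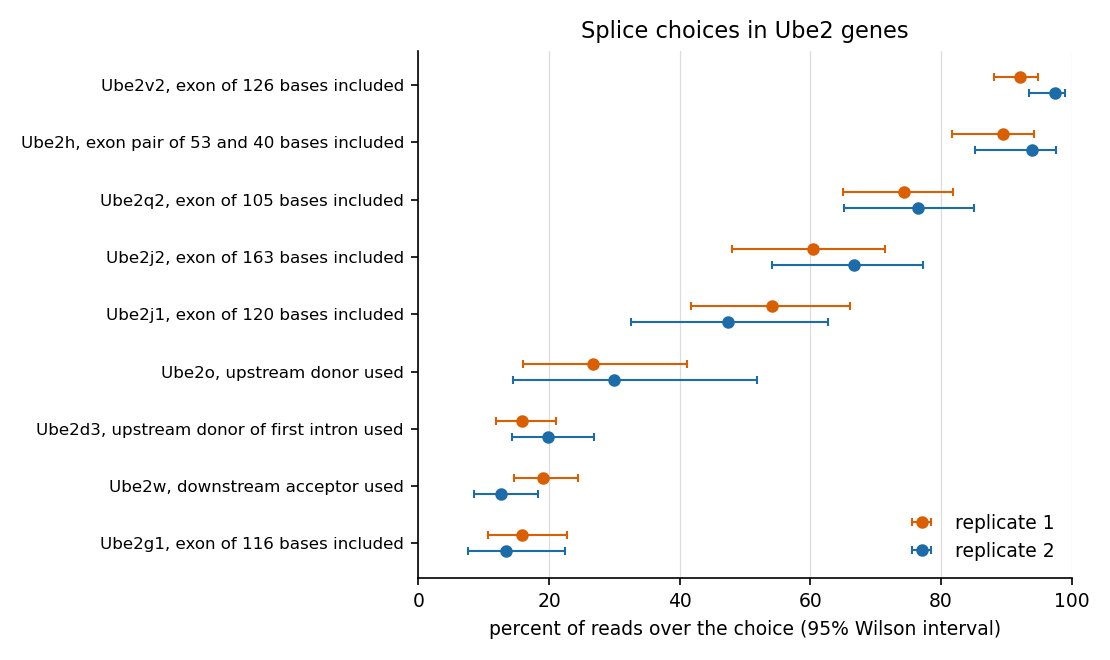
Share of reads that include an exon, or use the named splice site, over all reads that make the choice, in 9 events of 9 Ube2 genes, with replicate 1 above replicate 2 and 95% Wilson intervals. The Ube2j1 exon lies near the middle at 54.1% and 47.4%, and the intervals of the libraries overlap in every event shown.

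The variable pair of coding exons in Ube2h is described with its cysteine codon. An exon of 116 bases in Ube2g1, not coding, was included in 22 of 139 reads from replicate 1 (15.8%) and 11 of 82 from replicate 2 (13.4%). The annotated chain with this exon had 17 reads in replicate 1 and 6 in replicate 2. That transcript is annotated as protein-coding with 99 codons, against 170 for the leading Ube2g1 transcript. The 77-base exon of Ube2w counted among the 11 is the short form of an exon of 156 bases, made by the downstream acceptor described next. Its 46 of 48 and 22 of 25 scored reads leave out those with the longer form, which was included in 199 of 201 and 151 of 154 reads. An exon of 68 bases in Ube2f, not coding, was included in 2 of 42 and 2 of 29 reads. In Ube2d-ps, exons of 187 and 77 bases were included in 5 of 30 and 12 of 36 reads from replicate 1, and in 8 of 28 and 10 of 30 in replicate 2. In Ube2d3 the choice concerned the 5′ UTR, where the first intron started from a donor 166 bases upstream of the leading one in 38 of 239 reads from replicate 1 (15.9%) and 30 of 151 from replicate 2 (19.9%). A further annotated Ube2d3 chain, with 60 and 31 reads, is the leading chain without its first intron, and by introns it cannot be told apart from an incomplete read of the leading chain. All of these Ube2d3 chains encode the same 147 codons.

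In 2 members, splicing removed the cysteine codon itself in more than 5% of the reads of both libraries. In Ube2w an acceptor 79 bases downstream of the leading one was used in 47 of 247 reads from replicate 1 (19.0%, 14.6 to 24.4) and 22 of 175 from replicate 2 (12.6%, 8.45 to 18.3). The junction is annotated, but the main chain that carries it, with 43 and 21 reads, is not. The 79 bases hold the motif and the cysteine, codon 91 of 151, shown in capitals. Their length is not a multiple of 3, and the frame that follows ends after 132 codons in all.
Ube2w (chr1:16585353-16585431, minus strand): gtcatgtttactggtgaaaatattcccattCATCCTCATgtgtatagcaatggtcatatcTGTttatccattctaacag

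In Ube2h, 2 neighbouring coding exons of 40 and 53 bases were skipped together in 10 of 95 reads from replicate 1 and 4 of 65 from replicate 2. They add up to 93 bases, so the frame is kept and 152 of 183 codons remain, as in the annotated transcript Ube2h-201. The first exon of the pair holds the motif codons and the second the cysteine, codon 87, as the capitals show.
Ube2h first exon of the pair (chr6:30242538-30242577, minus strand): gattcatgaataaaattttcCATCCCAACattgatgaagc
Ube2h second exon of the pair (chr6:30241372-30241424, minus strand): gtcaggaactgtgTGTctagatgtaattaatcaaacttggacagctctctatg

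The same count was made for every member with the strict or looser motif. Over all events, 50 of 249 reads spanning the Ube2w cysteine codon in replicate 1 (20.1%, 15.6 to 25.5) and 27 of 178 in replicate 2 (15.2%, 10.6 to 21.2) were spliced without it. In Ube2h the counts were 10 of 98 (10.2%, 5.64 to 17.8) and 4 of 65 (6.15%, 2.42 to 14.8). Of the 20 members that reached 20 spanning reads in both libraries, these 2 were the only ones at 5% or more in both. The other 18 together had 8 such reads of 2370 in replicate 1 and 3 of 1523 in replicate 2, and 12 of the 20 had none in either library. In Ube2m, the most deeply read of them, 0 of 444 and 0 of 258 reads lacked the codon, and the upper Wilson bounds are 0.858% and 1.47%. Reads were counted by RNA splicing alone, and no protein was measured.

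**Figure D5:**
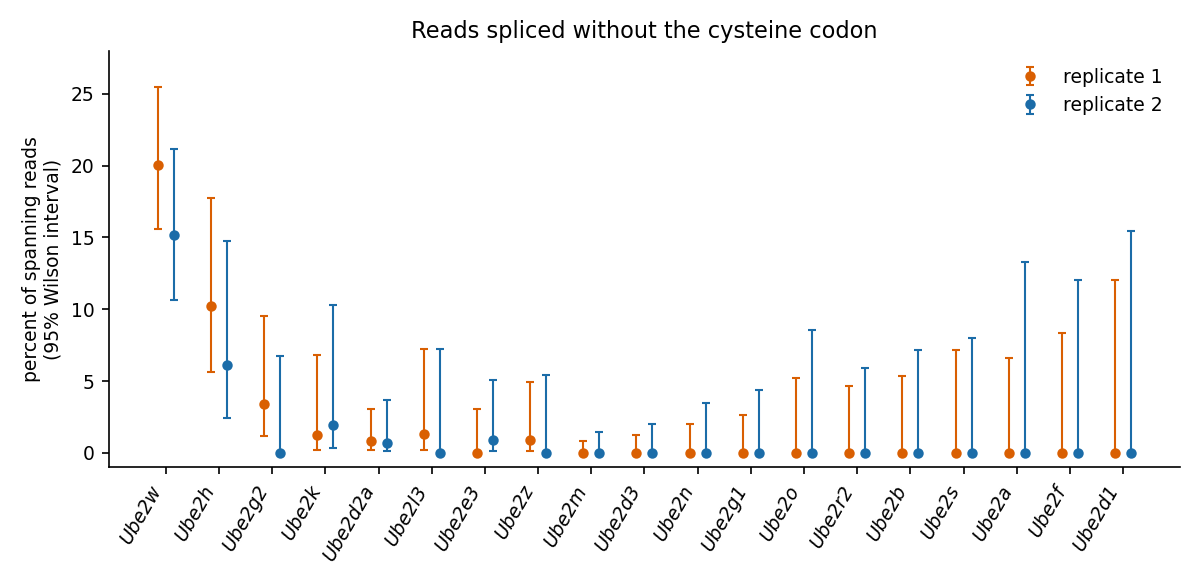
Percent of reads spanning the cysteine codon whose introns leave it out, in 19 Ube2 genes that reached 20 such reads in both libraries, replicate 1 left of replicate 2, with 95% Wilson intervals. Ube2w (20.1% and 15.2%) and Ube2h (10.2% and 6.15%) stand at the left, and the other genes shown are at or below 3.41%.

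The genes upstream and downstream of the E2 enzymes were read from 4 lists. Among their genes tested, the median log2 ratio was 0.13 for ubiquitin and ubiquitin-like genes, −0.02 for E1 enzymes, 0.24 for other E2-fold genes and −0.08 for E3 ligases, against 0.00 over all genes tested. Of 14 ubiquitin and ubiquitin-like genes 13 were detected, and 2 of the 13 tested differed between the libraries by the exact binomial test, both higher in replicate 1, a direction in which 0.520% of all genes tested were called, against 0.362% for the other. Ubb, a polyubiquitin gene, had 4542 and 2812 reads (4236 and 3732 RPM, adjusted p = 5.06e-05, exact test). Both calls of the list were lost when only annotated models were counted. Sumo2 had 288 and 192 (269 and 255 RPM).

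Of 10 E1 enzymes, all were detected, 8 were tested and none was called, with 2 at an unadjusted p under 0.05. Uba1, the main ubiquitin E1, had 299 and 210 reads (279 and 279 RPM). Sae1 and Uba2, the SUMO E1 subunits, had 262 and 187 reads (244 and 248 RPM) and 140 and 99 reads (131 and 131 RPM). Uba3, the catalytic NEDD8 E1 subunit, had 102 and 42 reads (95.1 and 55.7 RPM, adjusted p = 0.157, exact binomial test), and its partner Nae1 had 93 and 45 (86.7 and 59.7 RPM, adjusted p = 0.576, exact test). Uba6, the E1 that loads Ube2z, had 1 read in each library, beside 119 and 85 reads of Ube2z (111 and 113 RPM). Uba7, the E1 for ISG15, had 5 and 2 reads.

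Of 9 genes with the E2 fold under other names, 8 were detected, 7 were tested and none was called, with 1 at an unadjusted p under 0.05. Tsg101 (209 and 124 reads), Aktip (163 and 89), Atg3 (119 and 81) and Cdc34 (56 and 48) were the most abundant, and Cdc34b had no read. All 36 partner E3 ligase genes were detected, 31 were tested and none was called, with 2 at an unadjusted p under 0.05. Stub1, a chaperone-linked ligase, had 376 and 290 reads (351 and 385 RPM). Rbx1, the RING subunit of cullin ligases, had 302 and 180 reads (282 and 239 RPM), and Fzr1, an activator of the anaphase-promoting complex, had 172 and 137 (160 and 182 RPM). Fancl, the ligase of Ube2t, had 2 and 6 reads.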

How the data were processed

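Long reads of 2 libraries were deposited as TALON tables of transcript models with the number of reads on each; per the file headers these are raw counts, not normalized, and per the labels the assembly is mm10. The models match GENCODE M21. The aligner is not given in the sources used here. Known models carry the annotated ends, so read ends are lost.

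Counts were summed per gene and divided by the library's mouse reads, spike-ins left out. The members and lists were chosen with earlier results of these data known. Between libraries, the reads of each gene with 10 or more were compared by an exact binomial test, two-sided, against the libraries' share of mouse reads. With 1 group, edgeR's quasi-likelihood test has no residual degrees of freedom and was not run. Log2 ratios used a pseudocount of 0.5 reads. Chains of introns were matched by position, and the leading chain was compared with Fisher's exact test where each library had 20 or more full-chain reads. Both tests used Benjamini-Hochberg adjustment over all genes tested. They were also run on simulated libraries with counting error alone, which cannot show how they behave with further variation between libraries. Intervals are 95% Wilson intervals, and the limit for a count of 0 is 3 reads; both cover counting error only, without molecular identifiers. Alternatives were edgeR 4.0.16 TMM and DESeq2 1.42.0 size factors, other classes and other minimums (Python 3.11.15, scipy 1.17.1, R 4.3.3). The looser motif search, the splice site choice and the cysteine codon count were added after the data were seen. Genes named are the 12 most abundant members, members called in a test, members with a second chain of 20% or more, the 3 with the lowest annotated share among those with 50 or more reads, members under 10 reads, members with a variable exon, paralogs, and of each list the 4 most abundant, the called and the absent; others were chosen after their values were seen. A few of these genes are not reported here by name, though the counts over members and lists include them.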

Additional observations from a re-analysis of the deposited data

How the results depend on the processing

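The limits are the 2 libraries of 1 group and few reads per splice choice. No paired analysis was possible because there is 1 group. The log2 ratio changed sign in 3 members with annotated models only and in 4 without the Genomic class. Before the change, with all models counted, none of these ratios was above 0.15 in size. No member's ratio changed sign under the scalings, minimums and pseudocount. With annotated models only, scaled to their own total, the median member level was 99.8 RPM, the family's share was 0.535% and no ubiquitin gene was called (0 against 2), while 20 genes were called higher and 15 lower in replicate 1, against 59 and 41. Without the Genomic class these values were 79.8 RPM and 0.416%, 1 member was called (Ube2ql1), and 106 genes were higher and 70 lower. There the log2 ratio of Ube2q1 moved from −0.21 to −0.62 (adjusted p = 0.0872, exact binomial test). The cause of these changes was not tested. Scaling to reads on annotated genes gave a median of 89.6 RPM, and without either replicate it was 81.6 to 82.3 RPM. Leaving out the pseudogenes and Ube2cbp, a choice made after seeing the data, gave a family share of 0.408%. Weighting members equally gave an annotated share of 82.8%, against 84.7%. The median leading chain share of 91.4% was 95.8% with annotated chains only, 88.5% with incomplete matches as chains and 93.6% for chains of 2 or more reads. The chain test called 1 gene with annotated chains only and 5 with incomplete matches as chains, against 12, and no member in any of its alternatives. TMM and median-of-ratios scaling, the read minimums and the pseudocount moved no count of calls by over 1.5 times. Leaving out either replicate gave 11 to 12 variable exons.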

Other observations

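Reads on unannotated models antisense to a member's locus were seen at 28 of the 36 members; the strand of these reads is uncertain. The highest counts were at Ube2h, with 30 reads in replicate 1 and 24 in replicate 2, then at Ube2s with 26 and 28, Ube2w with 29 and 20, Ube2b with 19 and 22 and Ube2d2a with 18 and 20. At Ube2b these compare with 74 and 53 reads of the gene itself. The class given to single-exon reads in the last exon differed between the libraries in several members. In Ube2q1 all 34 such reads were Genomic in replicate 1, and all 24 were incomplete splice matches in replicate 2. In Ube2z, 6 were incomplete matches in replicate 1 and 16 single-exon reads were Genomic in replicate 2. Sums over all classes do not depend on this naming.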
